A study of Homo sapiens with 6 samples.

Results

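The p53 and RB axis was followed through 9 genes, MDM2, CDKN1A, CDKN2A, RB1, E2F1, GDF15, BBC3, BAX and FAS, in LX-2 cells. The genes were chosen by name, as regulators, cell cycle inhibitors and targets of p53 and RB in a line immortalised with a viral T antigen. All 9 were found by symbol among the 24789 genes and assembled loci of the deposited table, and all 9 passed the filter on low counts. LX-2 is a human cell line derived from hepatic stellate cells, which lay down scar matrix in injured liver. RNA was sequenced from 3 libraries of cells given an siRNA against AEBP1 and 3 libraries of cells given a scrambled siRNA, at 50 nM and 48 hours after transfection. The labels give the genotype as AEBP1 knockdown for the first and as WT for the second. Every library thus came from cells that carry the T antigen and were lipid-transfected, and neither cells without T antigen nor untransfected cells were analysed here. No source used here gives the sequence of the AEBP1 siRNA or says that libraries came from separate transfections, and p-values then measure only a spread that may be technical.

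As background, p53 is a transcription factor that responds to DNA damage and other stress by raising genes that halt the cell cycle or start cell death. MDM2, itself raised by p53, is the ubiquitin ligase that marks p53 for degradation. RB binds E2F factors and holds back the genes of S phase until cyclin-dependent kinases (CDKs) phosphorylate it. SV40 large T antigen binds both p53 and the RB family, which separates each from its usual targets, and for that reason it has long been used to immortalise primary cells. In many cells in which RB is inactive, CDKN2A is expressed at a high level.

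Promoter sequences are shown for E2F1 and MDM2, because these genes are the textbook cases of a factor and a regulator under the control of their own pathway. RefSeq windows of 250 bases before to 50 after a transcript start (GRCh38.p14, a later build than the hg19 of the deposited table) were found for all 9 genes, 15 windows in all. The E2F motif searched was TTTNNCGC with C or G at each N, on both strands, and overlapping matches were allowed. It was present in 3.31% of 35114 windows and in 3 of the 15, of which 2 were largely the same MDM2 sequence. The E2F1 window (chr20:33686336-33686635, minus strand) held 2 matches, shown in capitals, which began 33 and 20 bases before the start.
E2F1: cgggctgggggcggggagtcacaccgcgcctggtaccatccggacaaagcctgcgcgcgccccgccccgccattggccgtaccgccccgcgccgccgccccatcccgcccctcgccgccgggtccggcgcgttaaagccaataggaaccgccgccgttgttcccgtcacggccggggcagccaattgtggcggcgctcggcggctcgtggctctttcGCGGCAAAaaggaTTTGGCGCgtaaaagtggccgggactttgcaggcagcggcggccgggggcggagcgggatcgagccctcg
The p53 motif searched was the consensus of adjoining decamers, with no spacer. MDM2 has a start inside the gene that p53 is known to use, and in the window of that start (chr12:68808767-68809066, plus strand) the closest stretch, in capitals, had 2 mismatches to the consensus and began 94 bases before the start.
MDM2: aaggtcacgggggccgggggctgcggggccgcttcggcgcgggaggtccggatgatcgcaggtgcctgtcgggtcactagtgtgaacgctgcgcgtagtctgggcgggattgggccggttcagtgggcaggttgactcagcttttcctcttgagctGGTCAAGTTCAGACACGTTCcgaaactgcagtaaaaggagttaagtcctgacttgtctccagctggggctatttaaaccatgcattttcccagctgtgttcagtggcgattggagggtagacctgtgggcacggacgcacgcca
The cut of 2 mismatches was taken from this MDM2 window, so MDM2 had to be among those counted. A stretch that close was present in 0.649% of all windows, and in 3 of the 15 windows here. Of these, 1 was of FAS and 2 were overlapping MDM2 windows that hold the same stretch, so that the separate stretches were 1 of FAS and 1 of MDM2. A single decamer, searched as well with no mismatch allowed, was present in 6.63% of all windows and in 2 of the 15. Those windows were of RB1 and FAS, and no MDM2 window held one. RB1 had a single window (chr13:48476200-48476499, plus strand), and whether it is at the main start of the gene was not checked. A match describes letters only, and none of the data bear on binding.

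The targeted gene was read first as a check of the labels. AEBP1 had 29.7, 27.7 and 48.3 CPM (counts scaled by library size) in libraries labelled AEBP1 siRNA 1, 2 and 3, against 53.6, 48.7 and 25.1 CPM in those labelled scrambled 1, 2 and 3. The library labelled AEBP1 siRNA 3 thus lay with the higher libraries and the one labelled scrambled 3 was the lowest of all, so every direction below rests on labels that AEBP1 goes against in both libraries numbered 3. By the edgeR test described below, the log2 fold change of AEBP1 was -0.27 (SE 0.305, 95% interval -0.97 to 0.43, edgeR adjusted p = 0.991). A knockdown of AEBP1 was thus not detected over the 6 libraries as labelled, which limits what the absence of calls below can mean. Total counts were 34433510 to 49432960 a library. Principal components were taken over the 11067 genes with a symbol and a mean of at least 5 CPM. The library labelled AEBP1 siRNA 1 stood apart on the first principal component, with a score of 38.3 where the others lay between -14.0 and -2.44. Of 16 stellate cell markers, 9 had a mean of at least 1 FPKM (fragments per kilobase and library size), led by VIM at 552 FPKM, while LRAT, the retinol-storing enzyme of quiescent stellate cells, was listed at 0 in all 6. The others under 1 FPKM were COL1A2, DES, LUM, DCN, HAND2 and GFAP. Markers of hepatocytes, leukocytes, endothelium and epithelium reached 1 FPKM for 1 of 6, 1 of 6, 0 of 5 and 2 of 5. The highest of these was the epithelial marker KRT18, at 95.5 FPKM.

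None of the 9 genes passed the test between the labelled groups. With edgeR's quasi-likelihood test and Benjamini-Hochberg adjustment over 16250 genes, 0 of 9 were called at an adjusted p under 0.05, where 0.00615% of all genes tested were called. At an unadjusted p under 0.05 the count was again 0 of 9, against 1.33% of all genes, and DESeq2 and limma-voom also called 0 of 9. In CPM the groups overlapped for each of the 9, where 5.93% of all genes had groups that did not overlap. In the deposited FPKM they did not overlap for 1 of the 9, MDM2, beside 6.22% of all genes. The log2 fold changes, AEBP1 siRNA over scrambled, ran from -0.13 to 0.20 with a median of 0.056, beside a median of -0.0023 over all genes tested. In estimate 5 genes were higher and 4 lower.

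**Figure D1:**
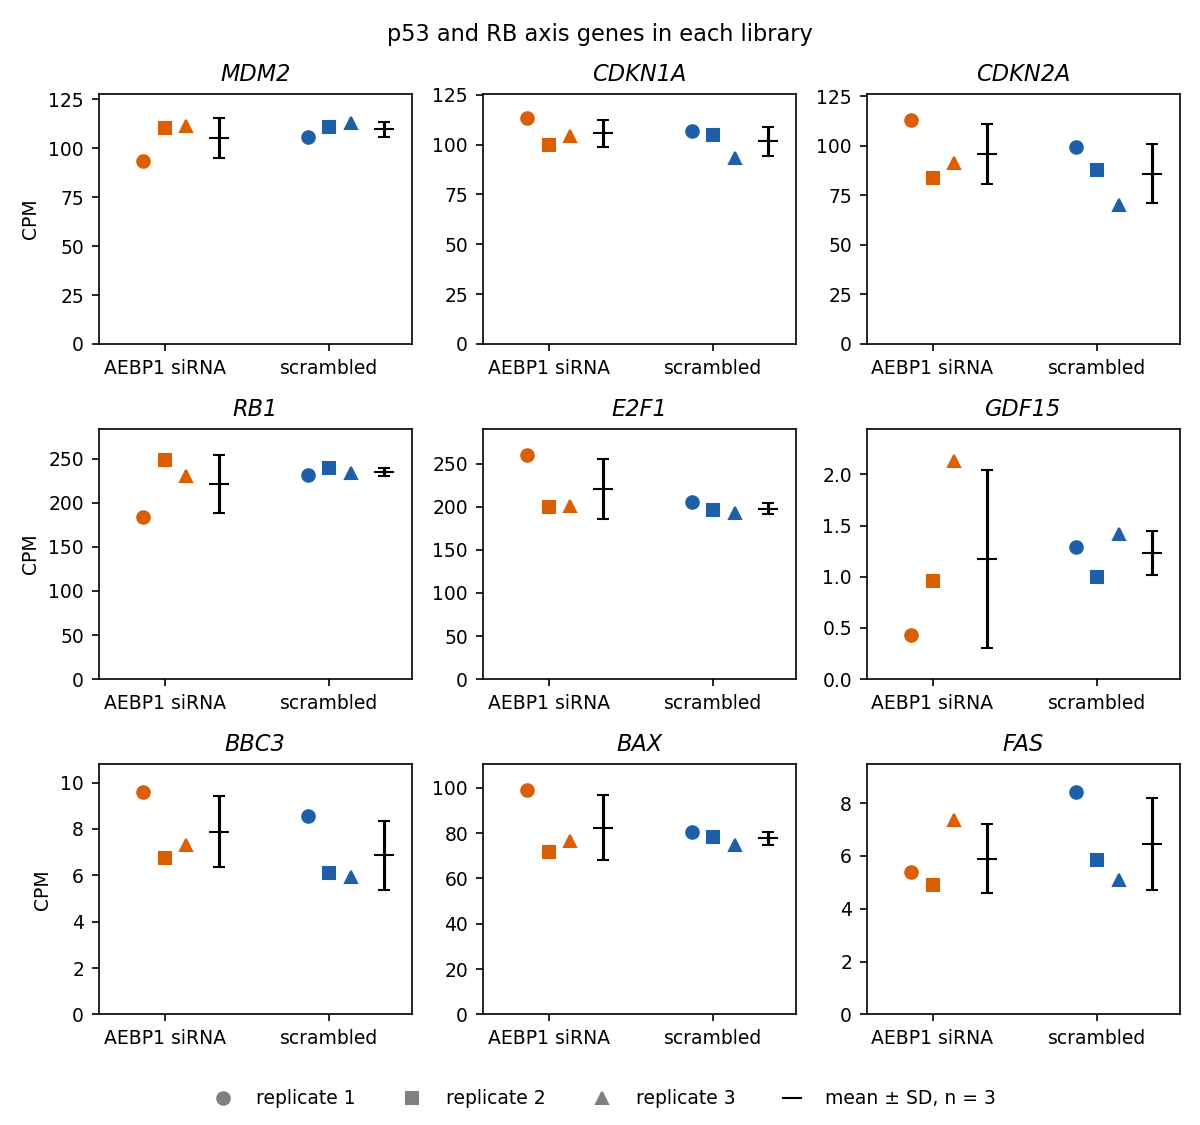
CPM (vertical axes, each from 0) of the 9 genes in the 3 libraries labelled AEBP1 siRNA (orange) and the 3 labelled scrambled (blue), with circles, squares and triangles for replicates 1, 2 and 3 and the mean ± SD beside them. The groups overlap in every panel, and the orange circle, AEBP1 siRNA 1, is the highest or the lowest point for 8 of the 9 genes.

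RB1 and E2F1, the pocket protein and the activator it restrains, were both abundant. RB1 (ENSG00000139687) had 184, 249 and 231 CPM in libraries labelled AEBP1 siRNA 1, 2 and 3, and 232, 239.7 and 234 CPM in those labelled scrambled 1, 2 and 3. Only the library labelled AEBP1 siRNA 1 was apart, below the other 5. The means were 221 ± 33.4 CPM with the AEBP1 siRNA and 235 ± 4.23 CPM with the scrambled siRNA (SD, n = 3 each), a log2 fold change of -0.087 (SE 0.124, 95% interval -0.37 to 0.20, edgeR adjusted p = 0.991). Without that library the estimate was 0.029, with an interval of -0.13 to 0.19.

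E2F1 (ENSG00000101412) went the other way in the same library. It had 260.2, 199 and 200.4 CPM in libraries labelled AEBP1 siRNA 1, 2 and 3, against 205, 196 and 192 CPM in those labelled scrambled 1, 2 and 3. The library labelled AEBP1 siRNA 1 was the highest and the other 5 lay within a narrow range. Means were 219.9 ± 34.8 and 198 ± 6.63 CPM with the AEBP1 and the scrambled siRNA (SD, n = 3 each). The estimated log2 fold change came to 0.15 (SE 0.125, interval -0.13 to 0.44, edgeR adjusted p = 0.991), and 0.015 without that library, with an interval of -0.14 to 0.17.

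CDKN2A (ENSG00000147889) encodes INK4A, an inhibitor of the CDKs that phosphorylate RB, and, in another reading frame, ARF, an inhibitor of MDM2. The table gives the gene as a whole, so the products were not told apart. It had 113, 83.7 and 91.2 CPM in libraries labelled AEBP1 siRNA 1, 2 and 3, against 99.7, 88.1 and 70.4 CPM in those labelled scrambled 1, 2 and 3. Both groups spread widely and overlapped, with AEBP1 siRNA 1 highest and scrambled 3 lowest. Means were 95.9 ± 15.2 and 86.0 ± 14.8 CPM (SD, n = 3 each), a log2 fold change of 0.16 (SE 0.158, interval -0.21 to 0.52, edgeR adjusted p = 0.991). The highest CPM was 1.60 times the lowest, where the median over the 11067 genes with a symbol that averaged 5 CPM or more was 1.34 times. Its exons overlap those of the antisense gene CDKN2B-AS1 in GENCODE v29, and since no source used here gives the strand setting of the counts, reads of each cannot be told apart.

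MDM2 (ENSG00000135679) was among the least variable of the 9 in CPM. It had 93.3, 110.4 and 112 CPM in libraries labelled AEBP1 siRNA 1, 2 and 3, against 106, 111 and 113 CPM in those labelled scrambled 1, 2 and 3. In CPM the groups overlapped, with AEBP1 siRNA 1 lowest. Means were 105 ± 10.2 and 109.8 ± 3.81 CPM (SD, n = 3 each), a log2 fold change of -0.063 (SE 0.102, interval -0.30 to 0.17, edgeR adjusted p = 0.991). In the deposited FPKM MDM2 had 6.80, 8.08 and 8.45 in libraries labelled AEBP1 siRNA 1, 2 and 3, against 8.89, 8.81 and 8.58 FPKM in those labelled scrambled 1, 2 and 3. There every AEBP1 siRNA library lay below every scrambled one, and the difference was -0.16 on the log2(FPKM + 1) scale and -0.18 on the log2(FPKM + 0.1) scale, with limma adjusted p-values of 0.992 and 0.991. The FPKM of MDM2 was no fixed multiple of its CPM, since FPKM per CPM differed up to 1.16 times between libraries. It differed up to 1.35, 1.19 and 1.15 times for GDF15, FAS and BBC3. For BAX it was 1.05 times, and for CDKN1A, CDKN2A, RB1 and E2F1 1.03 times. Exons of CPM, a carboxypeptidase gene, and of an antisense gene overlap MDM2 on the other strand, with the same limit on telling reads apart. A processed pseudogene, AC025423.2, overlaps MDM2 on the same strand, where a strand setting would not separate reads.

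CDKN1A (ENSG00000124762), the CDK inhibitor through which p53 halts the cell cycle, had 113, 99.7 and 104 CPM in libraries labelled AEBP1 siRNA 1, 2 and 3, and 107, 105 and 93.3 CPM in those labelled scrambled 1, 2 and 3. The highest value was 1.21 times the lowest, as it was for MDM2. Means were 106 ± 6.87 and 102 ± 7.37 CPM (SD, n = 3 each), a log2 fold change of 0.056 (SE 0.0995, interval -0.17 to 0.29, edgeR adjusted p = 0.991). Exons of the noncoding gene DINOL overlap CDKN1A on the opposite strand, with the same limit on telling reads apart.

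The p53 targets of cell death covered a wide range of levels. BAX (ENSG00000087088), which opens the outer mitochondrial membrane, had 98.9, 71.7 and 76.7 CPM in libraries labelled AEBP1 siRNA 1, 2 and 3, and 80.4, 78.2 and 74.7 CPM in those labelled scrambled 1, 2 and 3. The library labelled AEBP1 siRNA 1 was the highest and AEBP1 siRNA 2 the lowest. Its log2 fold change came to 0.084 (SE 0.130, interval -0.22 to 0.38, edgeR adjusted p = 0.991), and -0.068 without AEBP1 siRNA 1. BBC3 (ENSG00000105327) encodes PUMA, a BH3-only protein that binds the survival members of the BCL2 family. It had 9.61, 6.75 and 7.29 CPM in libraries labelled AEBP1 siRNA 1, 2 and 3, against 8.57, 6.10 and 5.91 CPM in those labelled scrambled 1, 2 and 3. In each group replicate 1 was the highest, and the groups overlapped. Its log2 fold change was the largest of the 9 at 0.20 (SE 0.212, interval -0.29 to 0.69, edgeR adjusted p = 0.991), and it was 0.035 without AEBP1 siRNA 1. The microRNA genes MIR3190 and MIR3191 overlap exons of BBC3, the first on the opposite strand and the second on the same strand.

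FAS (ENSG00000026103), the death receptor at the cell surface, had 5.41, 4.89 and 7.36 CPM in libraries labelled AEBP1 siRNA 1, 2 and 3, against 8.42, 5.83 and 5.09 CPM in those labelled scrambled 1, 2 and 3. It was highest in scrambled 1 and AEBP1 siRNA 3, which were also high in AEBP1, and low in scrambled 3 and AEBP1 siRNA 2, which were low in AEBP1. This was noticed after the values were seen, and how many genes run so was not counted. Over the 11067 genes used for principal components, scrambled 3 and AEBP1 siRNA 2 lay together on the second component. They scored -20.3 and -17.5 there, where the others lay between 4.88 and 17.7. The log2 fold change of FAS came to -0.13 (SE 0.243, interval -0.69 to 0.43, edgeR adjusted p = 0.991), and its direction turned, to 0.11, without scrambled 1. With the libraries numbered 3 left out of both groups it was -0.47 (SE 0.253, interval -1.09 to 0.16, edgeR adjusted p = 0.967). Those are the libraries in which AEBP1 goes against the labels. FAS was the highest of its group in AEBP1 siRNA 3 and the lowest of its group in scrambled 3. Leaving them out therefore had to lower the estimate, and the lower value is no separate evidence. Exons of FAS overlap those of ACTA2, the smooth muscle actin gene, on the opposite strand. ACTA2 had 5.72, 3.64 and 3.20 CPM in libraries labelled AEBP1 siRNA 1, 2 and 3, and 4.72, 3.35 and 3.47 CPM in those labelled scrambled 1, 2 and 3. Its part in the counts of FAS was not tested.

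GDF15 (ENSG00000130513), a secreted stress cytokine of the TGF-beta family and a p53 target, was the lowest and the most variable of the 9. It had 15, 36 and 88 counts in libraries labelled AEBP1 siRNA 1, 2 and 3, against 53, 49 and 62 counts in those labelled scrambled 1, 2 and 3. The 3 libraries labelled AEBP1 siRNA took both the lowest and the highest place, on either side of the scrambled ones. In AEBP1 siRNA 1 the level was 0.432 CPM with an exact Poisson 95% interval of 0.242 to 0.712, and in AEBP1 siRNA 3 it was 2.13 CPM with an interval of 1.71 to 2.63. These intervals cover counting error only and do not meet. Means were 1.17 ± 0.870 and 1.23 ± 0.215 CPM (SD, n = 3 each), a log2 fold change of -0.062 (SE 0.525, interval -1.27 to 1.14, edgeR adjusted p = 0.993). Without AEBP1 siRNA 1 it was 0.33, and with the libraries numbered 3 left out of both groups -0.71 (interval -2.05 to 0.63).

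**Figure D2:**
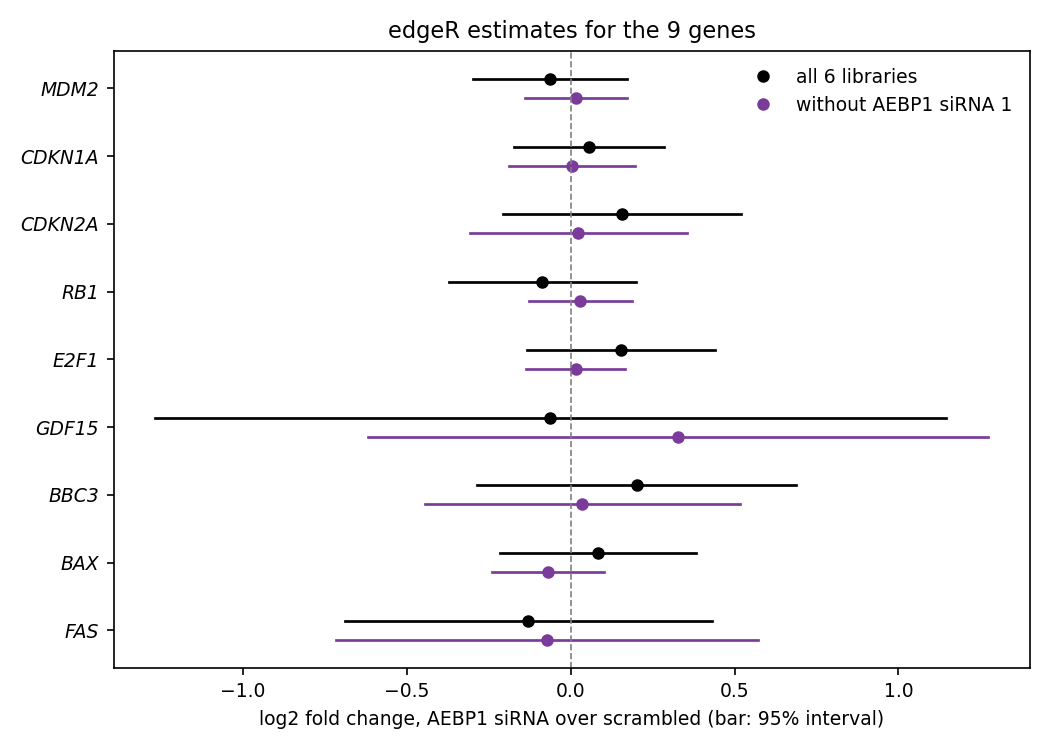
Log2 fold changes from edgeR, AEBP1 siRNA over scrambled (horizontal axis), of the 9 genes over all 6 libraries (black) and without the library labelled AEBP1 siRNA 1 (purple), with 95% intervals as bars. Every interval crosses 0, and that of GDF15, from -1.27 to 1.14 over all libraries, is the widest.

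The estimates moved with the library labelled AEBP1 siRNA 1. It held the highest CPM for 5 of the 9 genes and the lowest for 3, and FAS was the exception. The shift followed transcript length, taken here as the length implied by each gene's count and FPKM. Over the same 11067 genes, the median deviation of that library from the 6-library mean was taken by length. It was 0.37 (log2 CPM) for genes under 1 kb, 0.28 from 1 to 2 kb and 0.099 from 2 to 4 kb. From 4 to 8 kb it was -0.16, and over 8 kb -0.49. In the other 5 libraries these medians lay between -0.19 and 0.16. Among the 8 of the 9 genes with that mean, the 2 over 4 kb were below their own mean in that library, at -0.30 for RB1 (5.39 kb) and -0.20 for MDM2 (13.2 kb). Of the 6 shorter ones 5 were above, between 0.13 for CDKN1A and 0.40 for BBC3, and FAS was below at -0.16. Genes did not all lie near the median of their length. From 2 to 4 kb, where that median was 0.099, CDKN1A was at 0.13, E2F1 at 0.33, BBC3 at 0.40 and FAS at -0.16. MDM2, at -0.20, was less low than the median of -0.49 over 8 kb. The part of length in these differences was not tested. Without that library 7 of the 9 estimates were above 0, and those of MDM2, RB1, GDF15 and BAX changed sign.

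**Figure D3:**
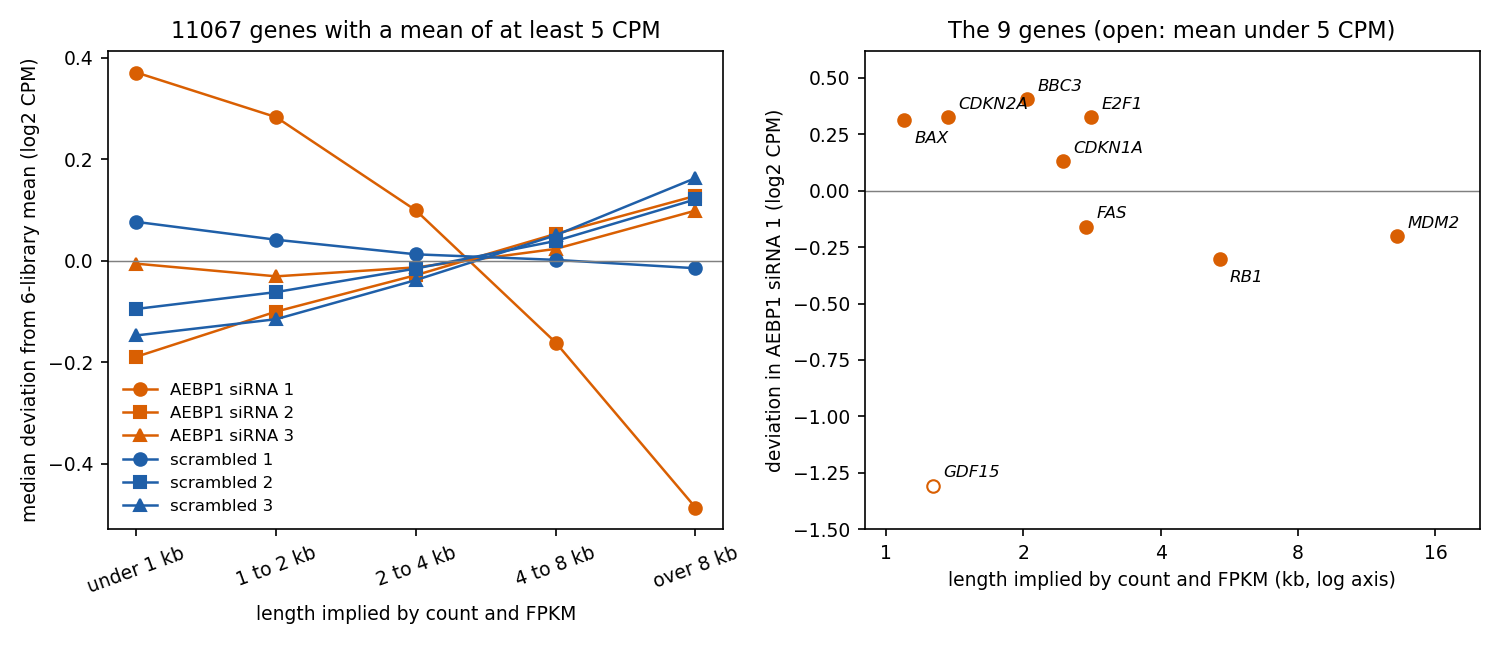
Left, median deviation from the 6-library mean (log2 CPM) of 11067 genes by implied length, with orange lines for AEBP1 siRNA and blue lines for scrambled libraries. Right, deviation of the 9 genes in the library labelled AEBP1 siRNA 1 against implied length (kb, log axis), where RB1 and MDM2 lie below 0 and 5 of the 6 shorter genes that averaged 5 CPM or more lie above.

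With the libraries numbered 3 and AEBP1 siRNA 1 all left out, 249 of 17050 genes, or 1.46%, were called by edgeR, and 0 of the 9 were among them. That fit sets 1 library labelled AEBP1 siRNA against 2 labelled scrambled and assumes that the lone library varies like the others. FAS had the lowest estimate of the 9, a log2 fold change of -0.54, with the same limit as its value without the libraries numbered 3. CDKN2A was at -0.16 (interval -0.40 to 0.073) and BAX at -0.14 (interval -0.36 to 0.067), and only MDM2 and RB1 had estimates above 0.

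Levels between genes were compared per length, in the deposited FPKM. E2F1, BAX and CDKN2A were the highest, with means over the 6 libraries of 74.2 ± 9.55, 73.1 ± 8.48 and 66.6 ± 10.7 FPKM (SD, n = 6). Each was above at least 94.1% of the genes tested. The values of E2F1 and BAX overlapped, and E2F1 was the higher in 3 of 6 libraries. Those of BAX and CDKN2A overlapped as well, although BAX was the higher in each of the 6. RB1 and CDKN1A followed at 42.3 ± 4.15 and 42.3 ± 2.84 FPKM, above 89.1% of genes tested, and overlapped each other, with RB1 higher in 3 of 6 libraries.

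MDM2, at 8.27 ± 0.775 FPKM, was set apart from both its neighbours in this order, with no overlap. The gap to CDKN1A rests on implied length, 13.2 kb for MDM2 and 2.45 kb for CDKN1A, as their mean CPM were 107 and 104. The ratio of CDKN1A to MDM2 was 6.87, 5.11 and 5.02 in libraries labelled AEBP1 siRNA 1, 2 and 3, and 4.86, 4.84 and 4.41 in those labelled scrambled 1, 2 and 3. BBC3 had 3.73 ± 0.823 FPKM and FAS 2.29 ± 0.536 FPKM, and they overlapped, with BBC3 the higher in each of 6 libraries. GDF15 was the lowest at 0.965 ± 0.427 FPKM, above 23% of genes tested, and did not overlap FAS.

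**Figure D4:**
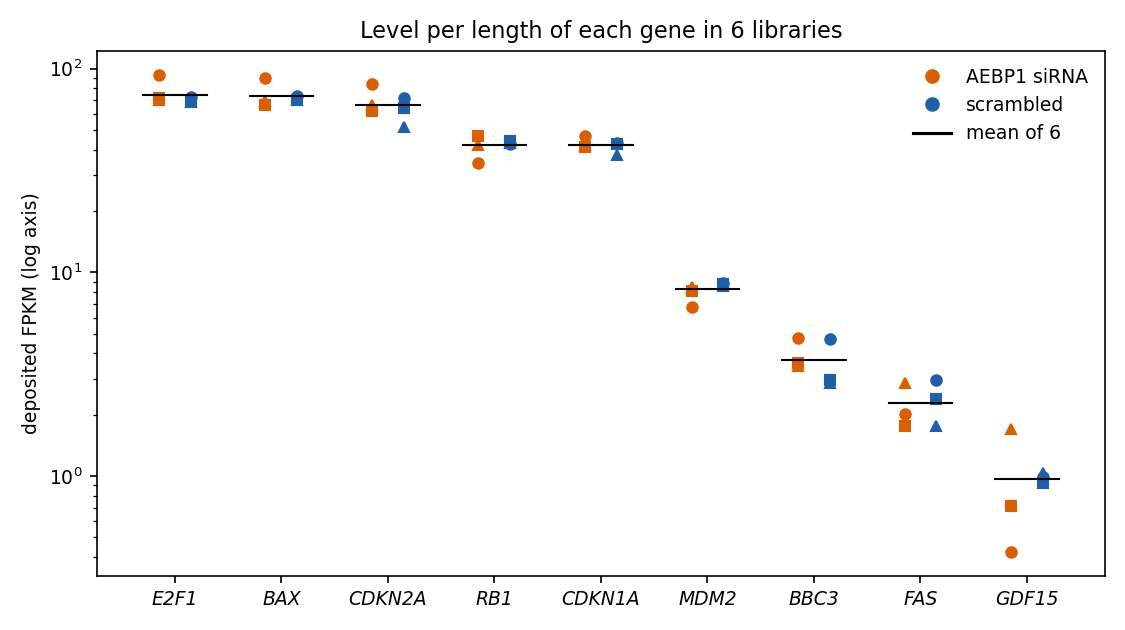
Deposited FPKM (log axis) of the 9 genes in order of their mean over 6 libraries (black lines), with orange for AEBP1 siRNA and blue for scrambled libraries, and the marker shapes giving replicates 1 to 3. E2F1, BAX and CDKN2A lie highest, at means of 66.6 to 74.2 FPKM, and GDF15 lowest at 0.965 FPKM.

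Other genes of the axis were read from 8 lists, 115 genes when each is counted once, of which 114 were tested. Called genes numbered 0, and 4 had groups that did not overlap in CPM, or 3.51% beside 5.93% of all genes tested. In estimate 59 were higher and 55 lower, and their median log2 fold change was 0.0044. FASLG, the ligand of FAS, was the gene not tested, with 0 counts in all 6 libraries.

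On the RB side the partners were present throughout. Of 16 other members of the RB and E2F families and their complexes, 0 were called, with 5 higher and 11 lower in estimate and a median log2 fold change of -0.079. The list median in AEBP1 siRNA 1 was -0.18 relative to the mean of the 6 libraries, and without that library 8 were higher and 8 lower, with a median of -0.0047. TFDP1, the DNA-binding partner of E2F factors, was the most abundant at 60.0 FPKM. LIN9, a subunit of the complex that RB relatives and E2F share with MYB factors, had the smallest p of the list. It was at 30.4, 34.4 and 33.1 CPM in libraries labelled AEBP1 siRNA 1, 2 and 3, against 39.0, 35.5 and 36.0 CPM in those labelled scrambled 1, 2 and 3, a log2 fold change of -0.17 (unadjusted p = 0.119 by edgeR). Of 11 cyclins, CDKs and regulators of G1, 0 were called, with 8 higher in estimate and a median of 0.035, or 5 higher and a median of -0.022 without AEBP1 siRNA 1. CDK4, one of the kinases that INK4A inhibits, led them at 142 FPKM. CCNE2, a cyclin of S phase entry, had the smallest p at a log2 fold change of -0.21.

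Genes known as E2F targets were abundant and 0 of 23 were called. Their median log2 fold change was 0.042, with 16 higher and 7 lower in estimate, and the medians of the list in single libraries lay at 0.12 in AEBP1 siRNA 1 and between -0.050 and 0.018 in the other 5, relative to the mean of the 6. Without AEBP1 siRNA 1 the median was -0.0031, with 9 higher and 14 lower. PCNA, the sliding clamp of DNA replication, was the most abundant at 527 FPKM. POLA1, the catalytic subunit of the polymerase that starts each strand, had the smallest p. It had 57.3, 74.5 and 74.7 CPM in libraries labelled AEBP1 siRNA 1, 2 and 3, against 85.4, 81.6 and 76.1 CPM in those labelled scrambled 1, 2 and 3, a log2 fold change of -0.23 (unadjusted p = 0.0933 by edgeR). The groups did not overlap for POLA1.

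Of the 5 other CDK inhibitors, 0 were called and all 5 were higher in estimate, with a median log2 fold change of 0.063, while 3 of the 5 were higher without AEBP1 siRNA 1. CDKN1B, which holds CDK2 in resting cells, was the most abundant at 42.1 FPKM. CDKN1C, an imprinted inhibitor of the same family as CDKN1A, had the smallest p. It had 4.95, 5.00 and 4.96 CPM in libraries labelled AEBP1 siRNA 1, 2 and 3, against 3.04, 3.56 and 3.81 CPM in those labelled scrambled 1, 2 and 3. The groups did not overlap, and the log2 fold change was 0.52 (SE 0.169, unadjusted p = 0.0153, edgeR adjusted p = 0.991).

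On the p53 side, 0 of 26 other targets and 0 of 14 regulators were called. The targets had a median log2 fold change of -0.036, with 10 higher and 16 lower in estimate, and the groups overlapped in CPM for each of the 26. Without single libraries that median lay between -0.035 and -0.0040, nearest to 0 without scrambled 1. GADD45A, a stress sensor that slows the cell cycle, was the most abundant at 455 FPKM. RRM2B, the ribonucleotide reductase subunit that p53 raises for DNA repair, had the smallest p, at 31.6 ± 5.09 CPM with the AEBP1 siRNA and 37.5 ± 2.63 CPM with the scrambled siRNA (SD, n = 3 each), a log2 fold change of -0.25. Among regulators the median was -0.10, with 6 higher and 8 lower in estimate, but it was -0.017 without AEBP1 siRNA 1, -0.018 without AEBP1 siRNA 2 and -0.024 without scrambled 1. RPL5, a ribosomal protein that can bind and block MDM2, was the most abundant at 422 FPKM. KAT5, an acetyltransferase that modifies p53, had the smallest p at a log2 fold change of 0.11, with groups that did not overlap in CPM.

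Partners of BAX, BBC3 and FAS in cell death did not pass the test either. Of 13 other BCL2 family genes 0 were called, with 5 higher and 8 lower in estimate and a median of -0.018, or 0.010 without scrambled 1. PMAIP1, which encodes the BH3-only protein NOXA and is itself a p53 target, was the most abundant at 143 FPKM, above BBC3 at 3.73 FPKM. BAD, another BH3-only gene, had the smallest p at a log2 fold change of 0.21. Of 10 genes of the death receptor pathway tested, 0 were called and 5 were higher in estimate, with a median of -0.013 that lay between -0.096 and 0.040 without single libraries. TNFRSF10B, a receptor of TRAIL, led them at 59.7 FPKM, and FADD, the adaptor that FAS recruits, had the smallest p at a log2 fold change of 0.19.

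**Figure D5:**
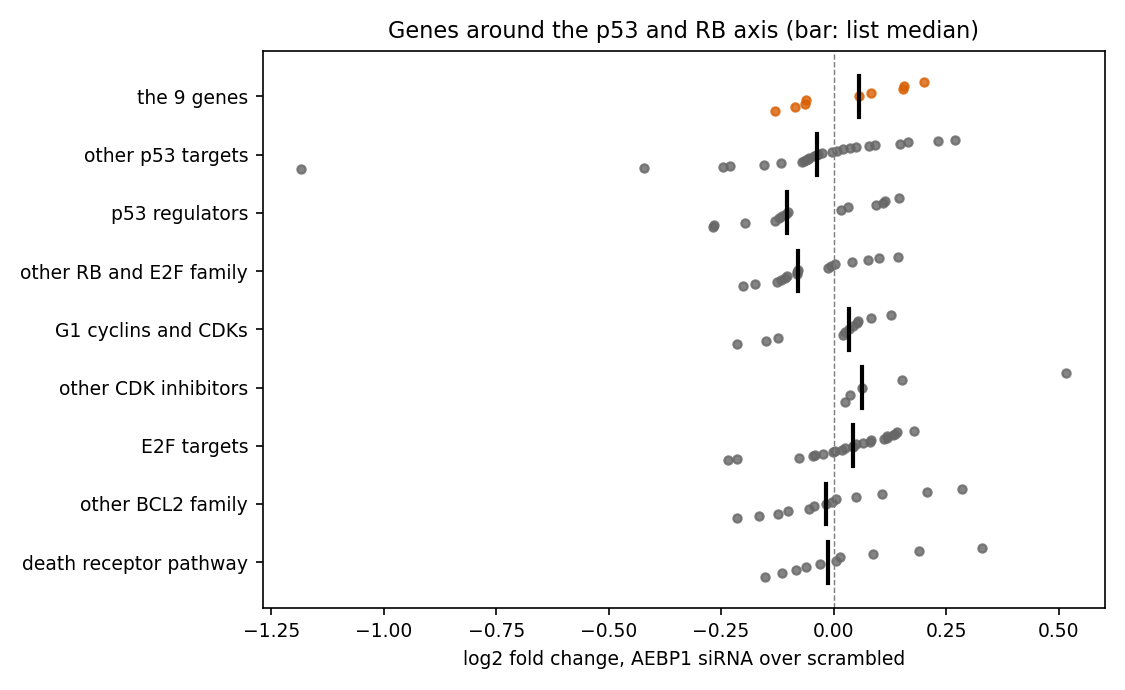
Log2 fold changes, AEBP1 siRNA over scrambled (horizontal axis), of each tested gene in the 9 genes (orange) and the 8 lists around them (grey), with list medians as black bars. The medians lie between -0.10 for p53 regulators and 0.063 for other CDK inhibitors over all 6 libraries, and the point furthest to the left is SPATA18, a low gene at 0.245 and 0.570 mean CPM with the AEBP1 and the scrambled siRNA.

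The genes whose levels ran most like those of 3 of the 9 were found by the root mean square difference of log2 CPM over the 6 libraries, each gene centred on its own mean. For MDM2 they were WWTR1 and KBTBD6, at 0.0124 and 0.0127, where the median over 11066 genes was 0.175. For CDKN1A they were RBM15B and TBP, at 0.0208 and 0.022 beside a median of 0.152. For E2F1 they were MBD3 and C14orf119, at 0.015 and 0.0173 beside a median of 0.184. The nearest of so many genes over only 6 libraries lies well below the median for any gene. The gap is thus no measure of a special likeness.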

How the data were processed

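The authors deposited raw counts for each gene, and FPKM values, per the file headers. FPKM was no fixed multiple of the count for every gene. Per the submitters' processing notes, hg19 was used, and no source used here gives the aligner, counter, annotation or strand setting. Of the deposited rows 19974 carried an Ensembl ID and 4815 were assembled loci, which took 1.51% to 1.83% of counts and stayed in the tests. A further 17 lines without values were left out, and 27 symbols turned into dates were restored by gene ID.

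Groups followed the labels, with 3 libraries each. No library was a copy of another (chi-square over degrees of freedom of at least 8.02 for each pair). Genes were filtered with filterByExpr, scaled by trimmed mean of M values and compared over all 16250 genes left by edgeR 4.0.16 (R 4.3.3, quasi-likelihood test), in a model with no term but group. The standard error is the log2 fold change over the square root of F. Deviations in log2 CPM used an offset of 0.01. The gene test was tested on simulated data. Alternatives used DESeq2 1.42.0 and limma 3.58.1. The 9 genes and the lists were chosen with earlier results of these data known. Named from each list were the gene with the highest mean FPKM and that with the smallest p. SPATA18, FASLG, ACTA2 and the stellate cell markers under 1 FPKM were named after their values were seen. Of the same-numbered libraries, deviations from group means correlated at 0.156, 0.0303 and -0.162, so the numbers were not taken to pair them.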

Additional observations from a re-analysis of the deposited data

How the results depend on the processing

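Of the 9 genes, 0 were called under each of the alternatives run. The count of all genes called, 1, was 2 with a replicate block, 6 with DESeq2, 2 with limma-voom, 3 with no filter and 0 at an adjusted p under 0.01. It was 0 to 2 without single libraries, and 249 with number 3 of both groups and AEBP1 siRNA 1 left out, a fit with 1 library on one side. Only number 1 correlated best with its own number. Without AEBP1 siRNA 1, log2 fold changes changed sign to 0.0154 for MDM2, 0.0293 for RB1, 0.328 for GDF15 and -0.0682 for BAX. GDF15 was at 0.0671 without AEBP1 siRNA 2 and 0.0478 without scrambled 3, where CDKN1A was at -0.002, and FAS was at 0.109 without scrambled 1. With number 3 of both groups and AEBP1 siRNA 1 left out, MDM2 was at 0.03, CDKN1A at -0.0851, CDKN2A at -0.164, RB1 at 0.08, E2F1 at -0.00702, BBC3 at -0.117 and BAX at -0.144. The cause of these changes of sign was not tested. Without single libraries the estimates ran from -0.108 to 0.0154 for MDM2, -0.002 to 0.0968 for CDKN1A, 0.0235 to 0.276 for CDKN2A, -0.18 to 0.0293 for RB1, 0.0154 to 0.22 for E2F1, -0.821 to 0.328 for GDF15, 0.0349 to 0.392 for BBC3, -0.0682 to 0.174 for BAX and -0.324 to 0.109 for FAS. Scaling, filters, DESeq2, limma-voom and FPKM changed no sign among the 9. MDM2 moved to -0.158 on log2(FPKM + 1) and -0.176 on log2(FPKM + 0.1), against -0.0632 on counts, and its FPKM groups did not overlap. GDF15 moved further, from -0.0618 to -0.279 with limma-voom, -0.282 with a replicate block and -0.231 on log2(FPKM + 0.1). Without AEBP1 siRNA 1 the list medians of G1 genes, E2F targets and the death receptor pathway changed sign, to -0.0224, -0.00314 and 0.00983, and that of the other RB and E2F genes came to -0.00474. GDF15 gave no value at a mean of at least 5 CPM. Depth limited GDF15 most, at 15 to 88 counts a library.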

Other observations

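Ratios between the 9 genes within a library were looked at after the values had been seen. Of 36 pairs, 3 had FPKM ratios that did not overlap between the labelled groups, namely E2F1 over BAX, E2F1 over MDM2 and CDKN1A over MDM2, and no test was run on them. That is 8.33% of the pairs, beside 6.91% of all pairs among 15877 genes tested with an FPKM above 0 in every library, so the share is near the background. MDM2 is in 2 of the 3, and its own FPKM did not overlap between the groups. E2F1 over BAX was 1.04, 1.08 and 1.02 in libraries labelled AEBP1 siRNA 1, 2 and 3, and 0.986, 0.993 and 0.976 in those labelled scrambled 1, 2 and 3, a separation of a few percent. MDM2 is the longest of the 9, and the part of length in the ratios that hold it was not tested.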
